A study of Homo sapiens with 6 samples.

Results

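The histone genes measured in MDA-MB-231 cells are described here at 0 h and after 12 h of dinaciclib. Genes were taken by symbol: the prefixes H1-, H2AC, H2BC, H3C, H4C, H2AZ, H2AX, H2AJ, H3-3 and MACROH2A. This gave 49 genes of the 11963 that the array measured with at least 1 probe set of their own, out of 82 protein-coding RefSeq genes with such symbols. Of the 49, 41 belonged to the replication-dependent classes and 8 were variant histones. The replication-dependent genes comprised 6 for linker histone H1, 8 for H2A, 12 for H2B, 7 for H3 and 8 for H4. The variants were H1-10, H2AJ, H2AX, H2AZ1, H2AZ2, H3-3A, MACROH2A1 and MACROH2A2.

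MDA-MB-231 is an established human breast cancer line, and dinaciclib is an inhibitor of cyclin-dependent kinases. The baseline group held 3 samples at 0 h, marked E, 4 and 5 in their titles, and the treated group held 3 samples at 12 h, marked F, 4 and 5. Cells of both groups grew in RPMI medium with serum and antibiotics, the drug was added in DMSO, and total RNA was extracted with Trizol and measured on 1-colour arrays. The labels give no dose, do not say whether the baseline cells received DMSO, and name no untreated sample at 12 h, so the drug cannot be told apart from the solvent or the time in culture. Whether the 3 samples of a group were grown separately is stated nowhere, so every p-value rests on a spread between samples that may be only technical. In RNA from a whole culture, fewer cells that make a transcript and less of it per cell cannot be told apart.

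Nucleosomes are built from the core histones H2A, H2B, H3 and H4, with H1 bound to the linker DNA. Replication-dependent histone genes are transcribed in S phase, and most of their mRNAs end in a stem-loop bound by SLBP instead of a poly(A) tail. Most variant histones are made from polyadenylated mRNAs outside S phase too and replace the standard histones at particular places or times; H2AX is known to give both a stem-loop and a polyadenylated mRNA. The sources used here do not give how the cDNA was primed for these arrays, and a label reaction that starts from poly(A) would read only polyadenylated forms of the mRNAs that end in a stem-loop.

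The promoters of 4 genes on which the results turn are printed for comparison, because 3 of them passed the test in different directions and the fourth is the brightest histone gene that did not. Each line gives the 160 bases that end just before the start of transcription, from RefSeq on GRCh38.p14, 5′ to 3′ along the gene. Capitals mark the letters of 3 motifs: TATAAA for the TATA box, CCAAT for the CCAAT box (read as ATTGG where it lies on the other strand) and ATTTGCAT for the octamer. None of these matches overlap. H2BC21 lies at chr1:149886683-149886842, H3C2 at chr6:26032100-26032259, H2AX at chr11:119095466-119095625 and H2AZ1 at chr4:99950276-99950435, all on the minus strand.
H2BC21: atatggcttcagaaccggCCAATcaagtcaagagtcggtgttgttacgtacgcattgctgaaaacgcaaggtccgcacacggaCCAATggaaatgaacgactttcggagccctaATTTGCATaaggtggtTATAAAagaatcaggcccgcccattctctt
H3C2: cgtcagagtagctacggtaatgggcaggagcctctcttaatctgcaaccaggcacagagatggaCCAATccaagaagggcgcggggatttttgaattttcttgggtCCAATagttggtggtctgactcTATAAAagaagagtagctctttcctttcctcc
H2AX: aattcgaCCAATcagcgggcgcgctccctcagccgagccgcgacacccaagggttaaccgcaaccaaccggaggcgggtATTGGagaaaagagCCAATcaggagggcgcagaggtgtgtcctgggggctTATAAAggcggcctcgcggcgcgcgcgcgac
H2AZ1: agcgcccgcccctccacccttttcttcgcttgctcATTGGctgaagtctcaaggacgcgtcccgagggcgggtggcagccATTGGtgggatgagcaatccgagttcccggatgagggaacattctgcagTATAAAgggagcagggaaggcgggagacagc
All 4 hold TATAAA, which begins 30 bases before the start in H2BC21, 32 in H3C2, and 31 in both H2AX and H2AZ1. H2BC21 and H3C2 hold CCAAT 2 times each, H2AX 3 times and H2AZ1 2 times, on either strand. The octamer is present in H2BC21 alone among the 4. Both variant promoters hold the same TATA and CCAAT letters as the replication-dependent pair. The printed stretches consist of G and C to 65.0% in H2AX and 60.6% in H2AZ1, against 48.1% in H3C2 and 47.5% in H2BC21.

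After dinaciclib, 2 histone genes were higher and 1 was lower past the test, and 46 of the 49 did not pass in either direction. H2BC21, which encodes a core histone H2B, rose 2.38-fold, and H3C2, which encodes a core histone H3, rose 1.77-fold. H2AX, the H2A variant that is phosphorylated around DNA double-strand breaks, fell 2.43-fold. The test was limma on log2(intensity + 1) across all rows of the array, with Benjamini-Hochberg adjusted p under 0.05 as the threshold. Over all 11963 genes, 20.0% passed in either direction, 3.54% higher and 16.4% lower. The histone genes reached 4.08% higher and 2.04% lower, so the share raised was near that of all genes and the share lowered was below it. No test of the list as a whole was made.

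H2BC21 read 50.3, 65.3 and 59.4 intensity units in baseline E, 4 and 5, and 154, 127 and 139 in dinaciclib F, 4 and 5. All 3 treated samples were above all 3 baseline samples. On the log2 scale the mean went from 5.88 ± 0.19 to 7.14 ± 0.14 (SD, n = 3 each), which is a change of 1.25 (standard error 0.20, limma adjusted p 0.00938.) The change was 1.59 between samples F and E and 1.08 between the numbered samples. It passed in every alternative tried, with 1.15 to 1.34 when 1 sample was left out.

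H3C2 read 64.0, 68.5 and 55.5 at baseline and 99.7, 114 and 121 after dinaciclib. The groups did not overlap here either. The log2 mean went from 5.99 ± 0.15 to 6.81 ± 0.14 (SD, n = 3 each), which is a change of 0.82 (standard error 0.19, limma adjusted p 0.0300.) The change was 0.63 between F and E and 0.92 between the numbered samples, which did not pass when fitted alone (limma adjusted p 0.0702). The call was lost whenever any of the 6 samples was left out, with limma adjusted p between 0.0537 and 0.121 and changes between 0.74 and 0.90, and it was lost when the arrays were centred on the spiked controls, with a change of 0.74 and an adjusted p of 0.106. The change was 1.30 after quantile normalization and 1.28 with median centring.

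H2AX read 2469, 3697 and 3810 at baseline and 1477, 1386 and 1177 after dinaciclib. Every treated sample was below every baseline sample, and baseline E was the lowest of its group. The log2 mean went from 11.67 ± 0.35 to 10.39 ± 0.17 (SD, n = 3 each), which is a change of -1.28 (standard error 0.24, limma adjusted p 0.0160.) The change was -0.74 between F and E and -1.55 between the numbered samples. The limma adjusted p rose to 0.0636 when baseline 4 was left out, to 0.0644 for baseline 5, to 0.0510 for dinaciclib 4 and to 0.0568 for dinaciclib 5, with changes between -1.17 and -1.31. With median centring the change was -0.83 and still passed (limma adjusted p 0.0201).

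**Figure D1:**
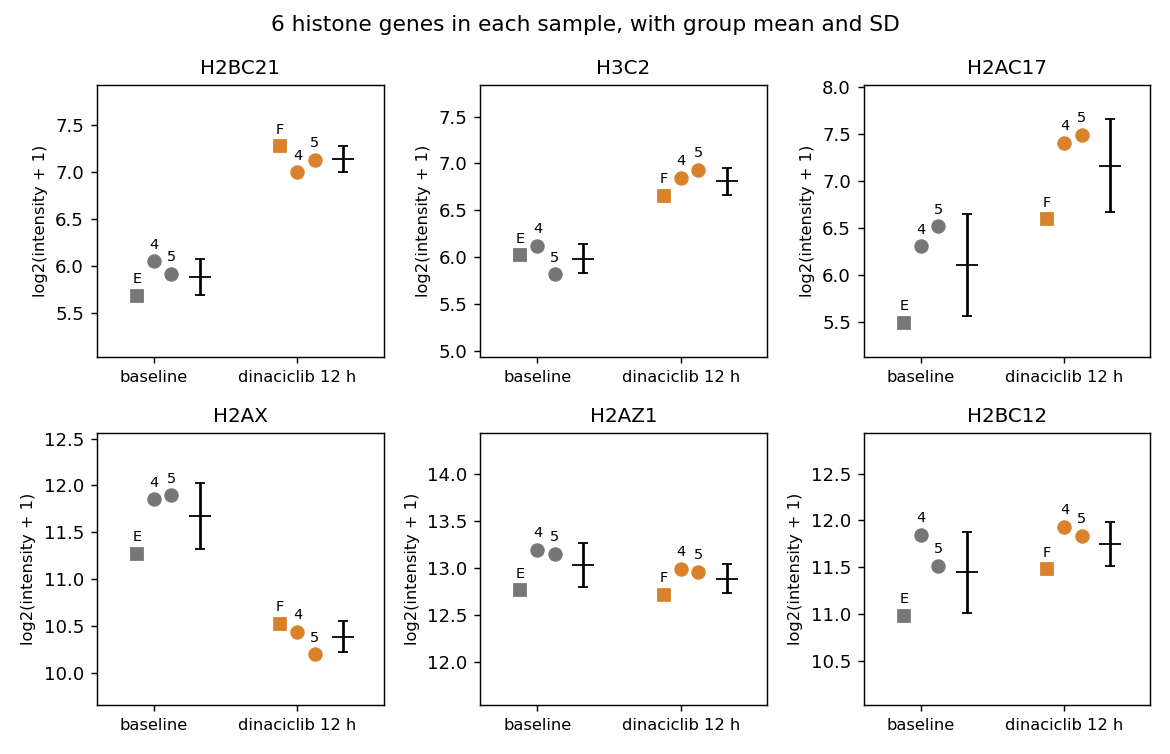
Log2(intensity + 1) of 6 histone genes in each sample, grey at baseline and orange after 12 h of dinaciclib, with squares for samples E and F, circles for samples 4 and 5, and the mean ± SD of each group to the right. All 6 panels span the same number of log2 units. The groups are apart in H2BC21, H3C2, H2AC17 and H2AX and overlap in H2AZ1 and H2BC12.

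More genes were lower than higher on the treated arrays: the median gene changed by -0.26, 34.9% of genes changed by more than 0, and the array medians were 53.3, 66.2 and 60.8 at baseline against 43.3, 46.8 and 40.6 after dinaciclib. The sources used here do not say whether the deposited values were scaled to each other. Samples E and F also stood apart in the 5′ control probe set for 18S ribosomal RNA, at 735.6 and 1155 against 8273 to 9061 in the numbered samples, and the part of this in the results was not tested beyond the values within the letters and within the numbers given beside each gene. Vimentin read 8910 and CD44 4430 on average, while E-cadherin CDH1 read 7.20 and the oestrogen receptor ESR1 20.8, but keratin KRT18, which was listed among the markers of low level in this line, read 3840.

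Among the 41 replication-dependent genes, 2 rose, 0 fell and 39 did not pass. Their median change was 0.27, from 0.09 without baseline E to 0.45 without baseline 4 when 1 sample was left out, and 27 of the 41 changes were above 0, against 34.9% of all genes. Relative to the median gene, 32 of the 41 were higher, and so were 6 of the 8 variant genes, whose median lay 0.11 above it. In 8 of them, H2AC14, H2AC17, H2BC12L, H2BC17, H2BC21, H3C1, H3C2 and H4C11, all treated samples were above all baseline samples, and in 0 of them were all below. Such non-overlap held for 9.36% of all genes in the higher direction and 30.7% in the lower, and for 19.5% and 0% of the replication-dependent genes.

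Many of these probe sets were dim. The median of the mean intensity over the 41 was 19.8 units, and 19 of them lay under 16 units. Of the replication-dependent genes at or above the 40th percentile of mean signal, 17 in number, the median change was 0.45, 16 changes were above 0 and all 17 were above the median gene. When genes below that percentile were left out of the fit, 4 of these 17 rose (H2AC14 and H2AC17 beside H2BC21 and H3C2) and 0 fell, against 8.88% raised and 35.4% lowered among all genes that remained.

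**Figure D2:**
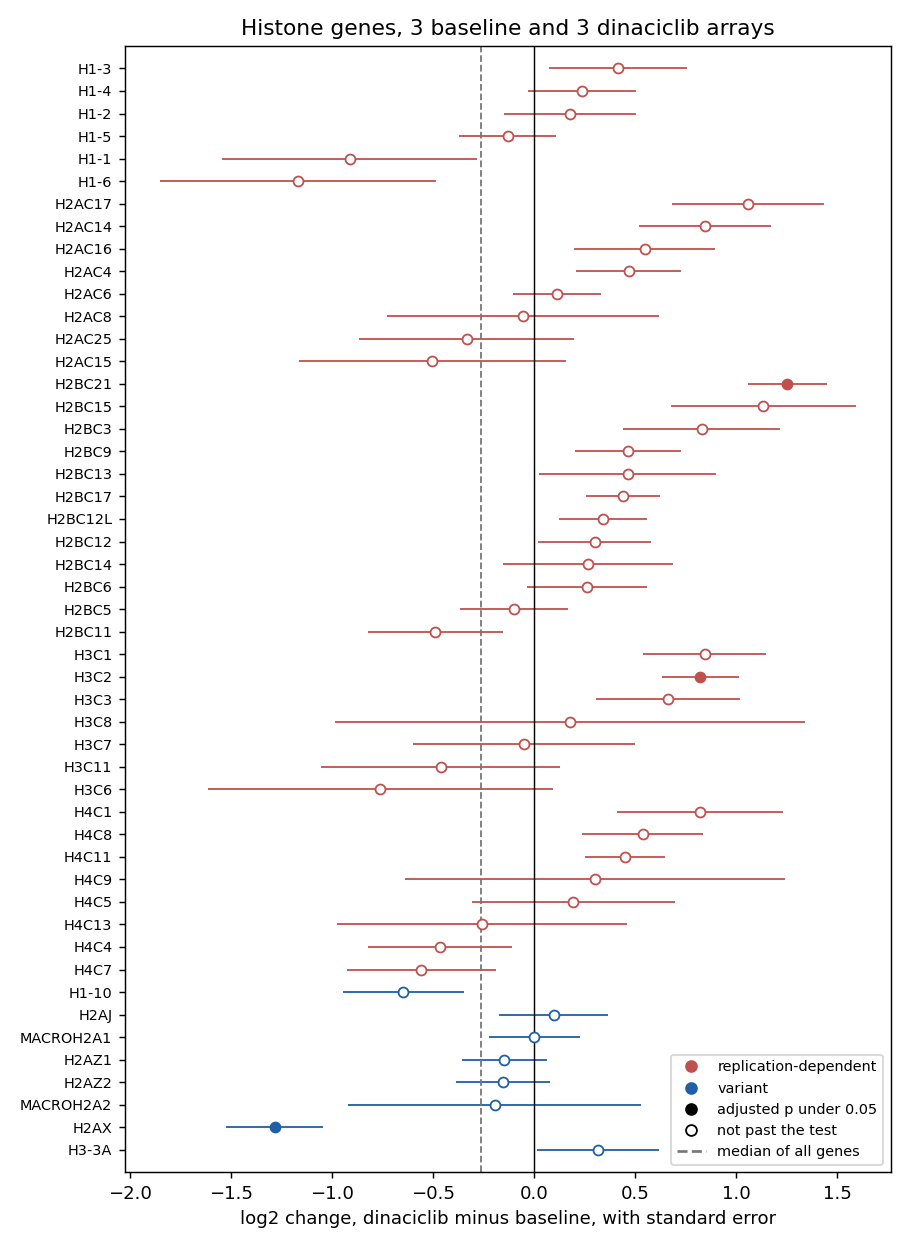
Log2 change, dinaciclib minus baseline, of each of the 49 histone genes with its standard error, replication-dependent genes in red by family and variants in blue. Filled points passed the test, the solid line is 0 and the dashed line is the median of all genes at -0.26. The filled points are H2BC21, H3C2 and H2AX, and the long bars belong to dim genes such as H3C8 and H4C9.

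The 12 H2B genes had a median change of 0.39, with 10 changes above 0 and H2BC21 past the test. The median was 0.22 without baseline E and 0.32 to 0.56 without another sample. H2BC15 changed by 1.13, but from 1.17, 2.68 and 2.26 units to 5.44, 2.65 and 10.7, where the groups overlapped (limma adjusted p 0.147). The brightest replication-dependent gene, H2BC12, read 2023, 3678 and 2924 at baseline and 2854, 3904 and 3654 after dinaciclib. Those groups overlapped, and the change of 0.30 did not pass (limma adjusted p 0.532). H2BC5, from which polyadenylated mRNA is also known, had probe sets that changed by -0.10 and 0.50, the second without overlap between groups, and neither passed.

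The 8 H2A genes had a median change of 0.29, and none passed. The median was 0.46 without baseline E, 0.19 without baseline 5 and between these without another sample. Without baseline E it was above the H2B median. H2AC17 read 43.8, 78.0 and 90.7 at baseline and 95.4, 168 and 179 after dinaciclib. The lowest treated sample lay just above the highest baseline sample, and samples E and F were the lowest of their groups. Its change of 1.06 had a standard error of 0.38 and a limma adjusted p of 0.107, and was close within the letters, 1.10, and within the numbers, 1.04. With the letter against number split as a covariate H2AC17 passed (adjusted p 0.0118), and so did H3C1.

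The H2AC14 probe set read 58.6, 37.9 and 80.6 at baseline and 82.2, 125 and 104 after dinaciclib, a change of 0.85 that did not pass (limma adjusted p 0.131). Its name carries the suffix _x_at, which marks probes shared with other transcripts and is found on 7 of the 49 chosen probe sets. Other suffixes were not part of this count, among them the _s_at of the H2BC21, H3C2 and H2AX probe sets, so sharing there was not tested. Histone genes of a family are nearly identical in coding sequence, so a signal assigned to 1 gene can come from another. With the 7 _x_at probe sets left out, 2 of 42 rose and 1 fell, while 417 of all genes rose and 1937 fell in that fit. H2AC6 read 440, 680 and 578 at baseline and 605, 609 and 597 after dinaciclib, a change of 0.12 inside the baseline spread.

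The H3 genes had a median of 0.18 over 7 genes, which single samples moved widely. It was 0.02 without dinaciclib 5, 0.20 without baseline E, 0.36 without dinaciclib 4, 0.45 without baseline 4, 0.74 without baseline 5 and 0.90 without dinaciclib F. The H4 median of 0.25 over 8 genes turned to -0.13 without baseline E, and was 0.12 without dinaciclib F, 0.45 without baseline 4 and 0.41 without baseline 5. H3C1 changed by 0.84, from 9.52, 15.8 and 16.3 to 18.1, 30.9 and 28.0 without overlap (limma adjusted p 0.113). H3C3 changed by 0.66 and H3C6 by -0.76, and both groups of values overlapped. The H4 changes ran from -0.56 in H4C7 to 0.82 in H4C1, and none of the 8 passed.

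The linker histone genes had a median change of 0.02 over 6 genes, which turned to -0.06 when the arrays were centred on spiked controls. It turned to -0.09 without baseline E, -0.02 without baseline 5 and -0.10 without dinaciclib 5, and reached 0.09 without dinaciclib F, 0.07 without dinaciclib 4 and 0.05 without baseline 4. H1-2, one of the main somatic linker histones, read 778, 1455 and 1485 at baseline and 1044, 1513 and 1539 after dinaciclib, a change of 0.18 within its spread. H1-6, a linker histone of the testis, changed by -1.17 with dinaciclib 5 at 3.46 against 20.6 to 37.0 in the other samples. H1-1 changed by -0.91 at levels under 9 units, and the dimmest member, H1-5, never exceeded 1.84 units. None of the 6 passed.

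A further 28 probe sets listed several histone genes and could not be assigned to 1 of them. Of these, 1 rose and 0 fell, against 3.65% raised and 9.90% lowered among the rows of the array without a single gene. The one that rose, chosen here after its values were seen, lists 14 H4 genes. It read 9.28, 12.9 and 9.49 at baseline and 20.3, 33.9 and 41.9 after dinaciclib, which is a change of 1.47 (standard error 0.31, limma adjusted p 0.0223), which moved to between 0.0528 and 0.0772 when any sample but dinaciclib F was left out. Another probe set for the same 14 genes, the brightest of them, read 8241, 10390 and 11020 at baseline and 8885, 9493 and 4908 after dinaciclib, and its groups overlapped.

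The 8 variant genes had a median change of -0.15, from -0.30 without baseline E to 0.00 without baseline 4 when 1 sample was left out; it was -0.07 without baseline 5 or dinaciclib F and -0.10 without dinaciclib 5. None rose, H2AX fell and 7 did not pass. The brightest, H2AZ1, encodes the H2A.Z found in nucleosomes at promoters. It read 6944, 9356 and 9073 at baseline and 6705, 8130 and 7978 after dinaciclib, and the groups overlapped. Its change of -0.15 had a standard error of 0.21 and a limma adjusted p of 0.700, and turned to 0.31 when each array was centred on its median. Its second probe set changed by -0.01.

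H2AZ2, the other H2A.Z gene, gave different readings from its 3 probe sets. The brightest changed by -0.15 and the dimmest by -0.21, while the other read 2556, 3451 and 3113 at baseline and 4095, 5406 and 5050 after dinaciclib. In that probe set all treated samples were above all baseline samples, and the change of 0.67 did not pass when every probe set was fitted (limma adjusted p 0.0877). Over all probe sets of that fit, 3.86% rose and 13.4% fell. In the same fit a second H2AX probe set fell too, from 108, 154 and 123 to 58.9, 71.0 and 61.3, a change of -0.99 with a limma adjusted p of 0.0266. The 2 dimmer H2AX probe sets changed by -0.47 and -0.27 and did not pass, and with the mean of all 4 the change was -0.75 with a limma adjusted p of 0.177.

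MacroH2A, a variant with a large extra domain that is enriched on the inactive X chromosome, is encoded by MACROH2A1 and MACROH2A2. MACROH2A1 read 3408, 4695 and 5004 at baseline and 3811, 4770 and 4427 after dinaciclib, a change of 0.00 with a standard error of 0.23. Its other probe sets changed by -0.16 and 0.13. MACROH2A2 read between 2.13 and 13.4 units in all 6 samples, the dimmest of the variants, and changed by -0.19 with a standard error of 0.73.

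H1-10, a linker histone expressed outside S phase, read 253, 438 and 481 at baseline and 214, 284 and 228 after dinaciclib. The groups overlapped through baseline E alone, and the change of -0.65 did not pass (limma adjusted p 0.200). Without baseline E it was -0.93 and passed (limma adjusted p 0.0455). H2AJ changed by 0.10 at levels of 16.5 to 29.9 units.

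H3.3 is the H3 variant laid down outside replication, and its genes H3-3A and H3-3B encode the same protein. H3-3A alone was read by 1 probe set, with 60.1, 111 and 102 at baseline and 88.3, 128 and 118 after dinaciclib, a change of 0.32 that did not pass (limma adjusted p 0.543). Of the probe sets that list both genes, the 4 that also list the pseudogene H3P6 changed by 0.07 to 0.25, with overlapping groups. The 4 that also list the microRNA gene MIR4738 changed by -0.71 to -0.09, and in 3 of them all treated samples were below all baseline samples. Non-overlap in that direction held for 30.7% of all genes, and the 4 list the same genes, so they are not separate readings. The largest of those falls went from 4437, 5925 and 5424 to 3080, 3575 and 2946 and did not pass (limma adjusted p 0.0570). None of the 8 passed, and their signs are those of the values as deposited, in which the median gene fell.

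**Figure D3:**
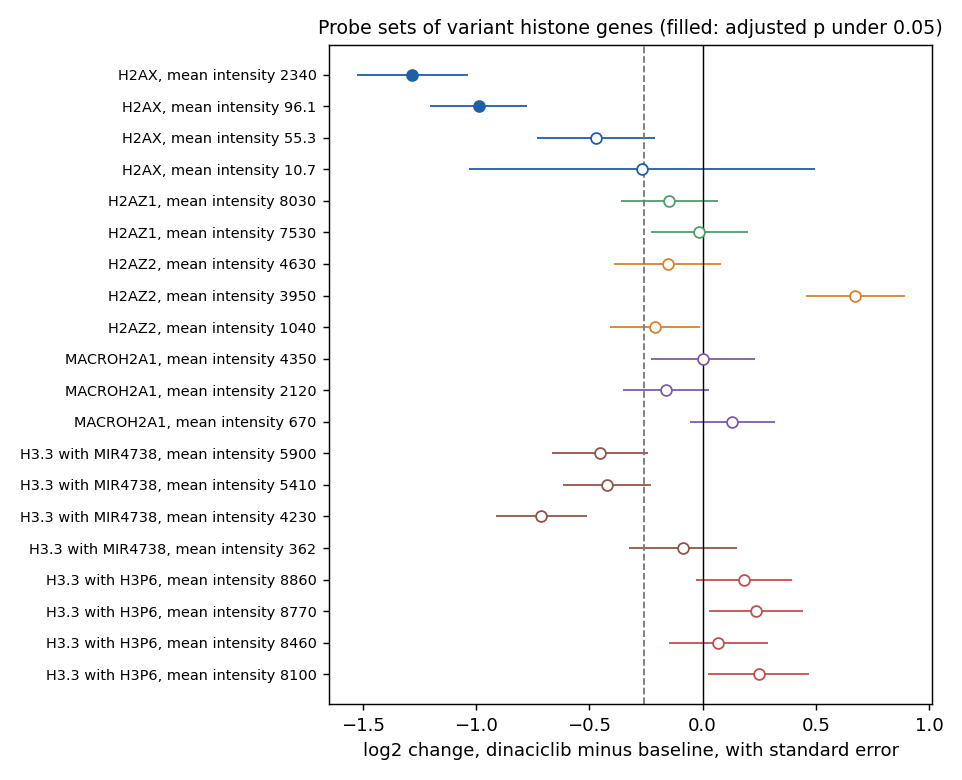
Log2 change with its standard error for each probe set of H2AX, H2AZ1, H2AZ2 and MACROH2A1 and each that lists both H3.3 genes, labelled with its mean intensity. The probe set of H3-3A alone is not drawn. Filled points passed the test in their fit, the solid line is 0 and the dashed line is the median of all genes. H2AX probe sets are all left of 0, 1 of the 3 for H2AZ2 is far to the right of the others, and the H3.3 probe sets fall into those listed with H3P6, right of 0, and those listed with MIR4738, left of 0.

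The difference between the median changes of the replication-dependent and the variant genes was 0.42. With each gene set relative to its own mean over the 6 samples, the replication-dependent median minus the variant median was -0.15, -0.10 and -0.36 in baseline E, 4 and 5, and 0.23, 0.26 and 0.35 in dinaciclib F, 4 and 5. The groups did not overlap, and the standard deviation of this quantity within the groups was 0.11. Among the alternatives the difference ran from 0.28 with 16 added to each value before the logarithm to 0.72 after quantile normalization. Centring each array, the variance model, covariates for the sample letters or numbers and the fit of every probe set cannot move it. In the alternatives that could move it, the difference stayed above 0. No test was made, because the classes were chosen with earlier results of these data known. The variant probe sets were brighter, with a median of the mean intensity of 1330 units against 19.8, and the part of brightness in the difference was not tested.

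How many histone genes passed depended on how the arrays were put on a common scale. After quantile normalization 9 replication-dependent genes rose, against 8.89% raised and 13.4% lowered among all genes. With each array centred on its median, 14 rose, against 16.3% raised and 10.9% lowered. With the arrays centred on the spiked controls, H2BC21 alone rose, against 2.02% raised and 13.3% lowered. With the letter against number split as a covariate 4 rose, against 5.01% raised and 19.1% lowered.

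Across these 4 settings H2AX fell and no other histone gene did. In the numbered samples alone, H2BC21 rose and H2AX fell, and none of the other histone genes passed, while 230 of all genes rose and 1179 fell. The median gene stood at -0.02 after quantile normalization, 0.19 with median centring and -0.34 with spiked controls. The replication-dependent median was 0.54, 0.72 and 0.18 in the same order, above the median gene each time. Both centrings shift all genes of an array alike, so only quantile normalization could have changed that ranking. The variant median was -0.18, 0.30 and -0.23, so its sign depended on the scaling.

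**Figure D4:**
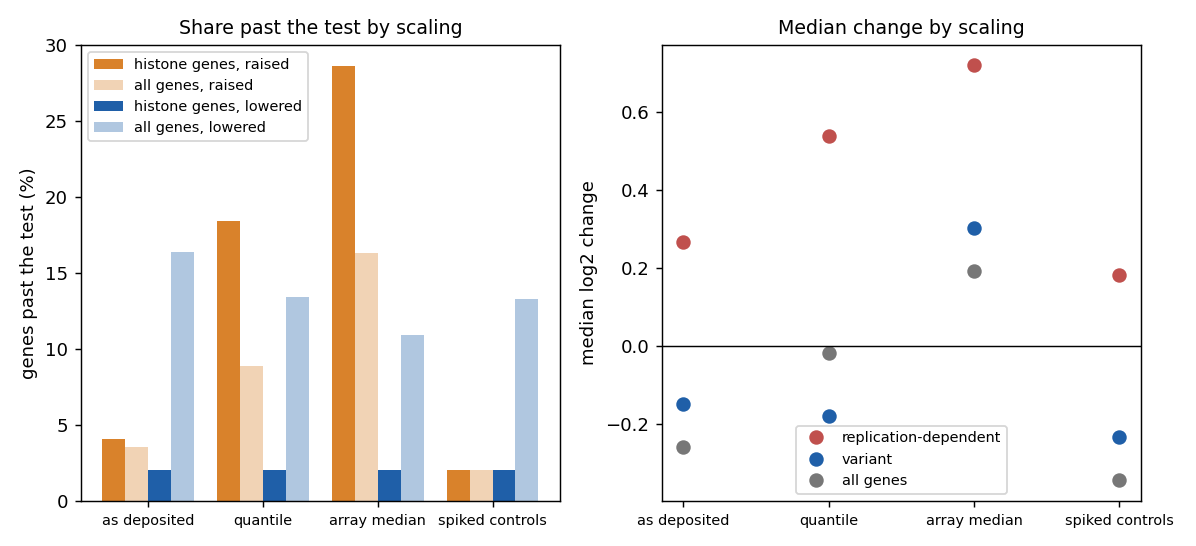
Left, percentage of the 49 histone genes (dark bars) and of all genes (pale bars) raised or lowered past the test under 4 scalings of the arrays; right, median log2 change of replication-dependent genes, variant genes and all genes under the same scalings. The share of histone genes raised runs from 2.04% with spiked controls to 28.6% with median centring, and the share lowered is 2.04% in all 4. The replication-dependent median is the highest of the 3 in each. Centring on array medians or spiked controls shifts all 3 alike and cannot change their order.

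The promoters of 46 of the 49 genes were matched in RefSeq, in windows of 300 bases from 250 before to 50 after the start, and searched on both strands for the letters of the same 3 motifs, TATAAA, the CCAAT box and the octamer. H3C11, H4C1 and H2BC12L were not matched. TATAAA occurred in 25 of 38 replication-dependent promoters (65.8%) and 3 of 8 variant ones, against 14.0% of all 27305 promoters in the table. CCAAT occurred in 33 of 38 (86.8%) and 6 of 8, against 39.7% of all. Of the 7 H4 promoters 2 held it, whereas all H1, H2A, H2B and H3 promoters did.

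The octamer ATTTGCAT, the letters bound by POU2F1 (Oct-1), occurred in 6 of 8 H2A promoters and 8 of 11 H2B promoters, in none of the H1, H3, H4 or variant promoters, and in 2.2% of all. The median change was 0.45 over the 14 replication-dependent genes with the octamer and 0.18 over the 24 without it. For TATAAA it was 0.27 over 25 genes with it and 0.20 over 13 without. For CCAAT it was 0.27 over 33 with it and 0.20 over 5 without. The octamer split is also a split by family, and its part in the change was not tested. These are descriptions over genes that share families and neighbours: 36 of the 38 lie on chromosome 6 and 2 on chromosome 1.

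Among genes that act on histones, the shares that fell past the test were 4 of 10 for transcription, 5.88% for mRNA processing and decay, 37.5% for H2B ubiquitylation, 23.1% for chaperones and 34.8% for S phase, against the 16.4% of all genes; no test compared the lists with other genes. The counts over all 11963 genes also moved when 1 sample was left out. From 1965 with all samples, the count that fell went to 898 without baseline 4 and 925 without baseline 5. It was 1838 without baseline E, 1504 without dinaciclib F, 1263 without dinaciclib 4 and 1168 without dinaciclib 5. With median centring 16.3% of all genes rose and 10.9% fell. Genes listed for the transcription of histone genes fell in part. The list of 11 held transcription factors and cofactors, and also the kinase gene CDK2 and the cyclin genes CCNE1 and CCNE2. Of 10 measured, 4 fell, 0 rose and 6 did not pass, and the median change was -0.39. CASP8AP2, which encodes the FLASH protein of the histone locus body, read 418, 490 and 471 at baseline and 75.6, 65.6 and 50.5 after dinaciclib. Its groups lay far apart, with a change of -2.84, a standard error of 0.22 and a limma adjusted p of 0.00305. NPAT, the coactivator at histone loci that CDK2 phosphorylates, read 437, 493 and 578 against 215, 187 and 124, which is a change of -1.54 (standard error 0.27, limma adjusted p 0.0126.)

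Without baseline 5 the limma adjusted p of NPAT was 0.0517, and with the mean of its probe sets the change was -0.92 and the adjusted p 0.0642. The other 2, named here because they complete the 4, were HINFP, a factor that binds H4 promoters, and CDK2. HINFP changed by -1.36 (limma adjusted p 0.00792), and by -0.88 after quantile normalization. CDK2, with a change of -0.88 and a limma adjusted p of 0.0321, lost its call in 5 of the 6 fits that left a sample out. Without baseline 5 the list had 2 genes lowered, and with median centring it had 3 lowered and 2 raised.

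The genes that process and degrade histone mRNA did not move one way. Of 17 measured in a list of 23, 1 rose, 1 fell and 15 did not pass, with a median of 0.08. The median turned to -0.02 after quantile normalization and without baseline E, was 0.18 without baseline 4, 0.14 without dinaciclib F and 0.05 without dinaciclib 4, and was 0.54 with median centring, under which 8 rose and 1 fell. SRRT, which encodes the cap-associated factor ARS2, changed by 0.70 with a limma adjusted p of 0.0431 and lost its call whichever of the 6 samples was left out; with the mean of its probe sets the change was 0.38 (adjusted p 0.313). CSTF2T, a variant of a cleavage factor subunit, changed by -1.54 with a limma adjusted p of 0.0102. SLBP, chosen for its role at the stem-loop, read 2058, 3377 and 3049 at baseline and 3120, 4096 and 3650 after dinaciclib, and the change of 0.38 did not pass (limma adjusted p 0.376), but with median centring it was 0.83 and passed (limma adjusted p 0.0242).

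Of 8 measured genes in a list of 10 for the ubiquitylation of H2B, 0 rose, 3 fell and 5 did not pass, with a median of -0.52. Without baseline 4 or baseline 5 only 1 fell, and with median centring 2 fell and 2 rose. RTF1, a component of the PAF1 complex that stimulates this mark, read 785, 1022 and 927 at baseline and 205, 172 and 145 after dinaciclib, a change of -2.39 (limma adjusted p 0.00344), which was -0.93 with the mean of its probe sets (adjusted p 0.0378). PAF1 itself changed by -1.65 (limma adjusted p 0.0140), with 0.0553 without baseline 4 and 0.0517 without baseline 5. The third, RNF40, a subunit of the ubiquitin ligase, changed by -0.80 (limma adjusted p 0.0404) and lost its call in 5 of the 6 fits that left a sample out; with the mean of its probe sets the change was -0.02 (adjusted p 0.975).

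All 26 listed genes for histone chaperones and deposition were measured: 0 rose, 6 fell and 20 did not pass, with a median of -0.36. The count that fell was 2 without baseline 4 or baseline 5, 3 without any 1 dinaciclib sample and 7 without baseline E, and with median centring 3 fell and 6 rose. CHAF1B, a subunit of the CAF-1 complex that places H3 and H4 on new DNA, changed by -1.85 (limma adjusted p 0.00932). ASF1A, which hands H3 and H4 to CAF-1 and other chaperones, read 457, 655 and 618 at baseline and 170, 169 and 143 after dinaciclib, a change of -1.83 (limma adjusted p 0.00499).

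An S phase list of 24 had 23 measured genes, of which 0 rose and 8 fell past the test, and their median was -0.54. CCNE2, SLBP and MCM2 in it were also in another of the lists. The count that fell was 4 without baseline 4, 5 without baseline 5, dinaciclib 4 or dinaciclib 5, 6 without dinaciclib F and 8 without baseline E. Over all genes the count that fell went from 1965 to 898 without baseline 4, and to between 925 and 1838 without another sample. GINS1, part of the replicative helicase, read 1349, 1937 and 1741 at baseline and 191, 318 and 275 after dinaciclib, a change of -2.69 (limma adjusted p 0.00366). POLA2, a subunit of the polymerase that starts new strands, changed by -2.73 (limma adjusted p 0.0134), and its adjusted p was 0.0534 without baseline 4. The medians of the transcription and chaperone lists turned to 0.06 and 0.09 with median centring, under which 7 S phase genes still fell and 1 rose. The replication-dependent histone genes and these lists were read in the same 6 samples, and no test compared them.

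**Figure D5:**
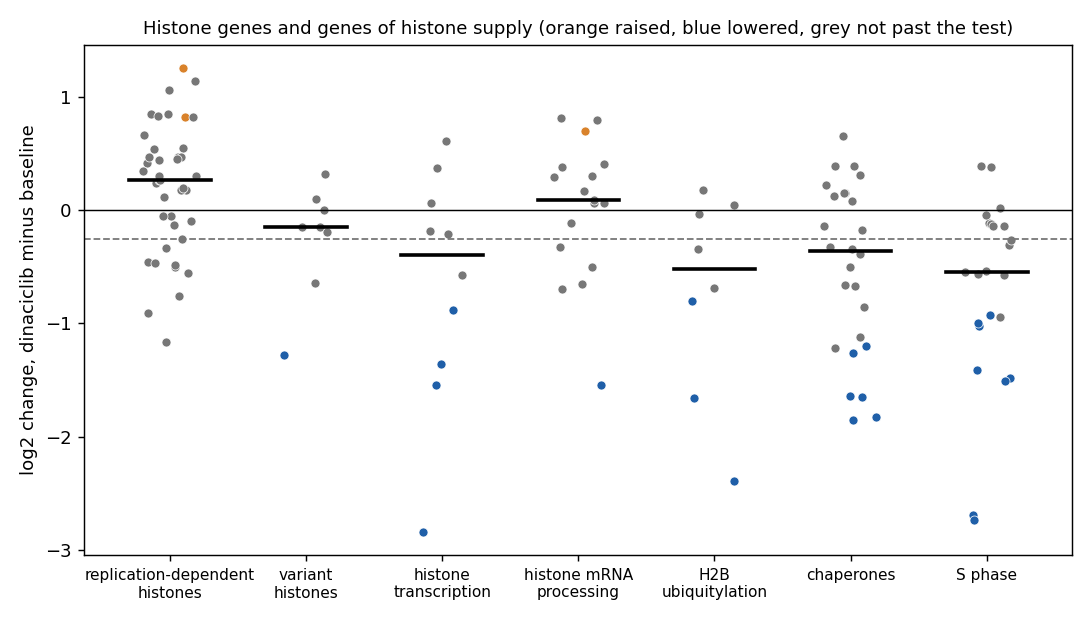
Log2 change, dinaciclib minus baseline, of the replication-dependent and variant histone genes and of the members of 5 lists of genes that supply or use histones, 1 point per gene, with a black bar at each median. Orange points rose and blue points fell past the test; the dashed line is the median of all genes. The replication-dependent genes have the highest median, 0.27, and the S phase genes the lowest, -0.54.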

How the data were processed

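Gene expression was measured in 6 samples on an array with 22277 probe sets. Each deposited value is a linear intensity of 1 probe set on 1 array; the sources used here do not give how the authors made it. Probe sets were named from the platform annotation: 19064 had 1 gene, 1043 several and 2108 none named, after 62 control probe sets were left out. Where a gene had several probe sets, the brightest by mean log2 value stood for it. Log2(intensity + 1) of 15114 rows (11963 genes and 3151 rows without a single gene) was fitted in R 4.3.3 with limma 3.58.1 (lmFit, then eBayes), with 3 samples per group, Benjamini-Hochberg adjustment over all rows and a threshold of 0.05. The fit was tested on simulated data.

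The histone genes and the lists of other genes were chosen with earlier results of these data known. Named were members past the test, H2BC21, H2AX and H2AZ1, the 3 highest and 3 lowest changes and the brightest and dimmest member of each class, and the 2 largest rises and falls past the test in each list; further names were chosen after their values were seen. Alternatives changed the scaling, the added constant, the filter on dim genes (40th percentile of the mean over all 6 samples), the choice of probe sets, the variance model and the samples. Array intensities carry no read depth; the number of arrays limits the precision. Correlations between samples of a group were 0.963 to 0.972, and 0% of values were identical. Promoters are RefSeq's. Member proteins were not analysed here.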

Additional observations from a re-analysis of the deposited data

How the results depend on the processing

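The number of histone genes past the test, 3 of 49, became 10 after quantile normalization and 15 with median centring. It was 5 of 49 both with a variance trend and robust fit and with the letter covariate. Without dim genes it was 5 of the 23 that remained. With the variance trend and robust fit 675 of all genes rose and 2680 fell. When 1 sample was left out, 1 to 3 histone genes passed, while 185 to 316 of all genes rose and 898 to 1838 fell. H2BC21 passed in all alternatives. The difference between the class medians, 0.42, became 0.72 after quantile normalization, 0.28 with 16 added and 0.60 without dim genes. It moved by less than its spread between replicates in the others. Of those, array centring, the variance model, the covariates and the fit of every probe set cannot move it.

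The titles share the numbers 4 and 5, and no source says that they pair the samples. Deviations from the group means correlated at 0.0739 and 0.073 for these numbers and 0.147 for E with F, each sample best with its own partner, which is a hint from the data and not the design. With the replicate block 4 histone genes passed: H2BC21 and H2AX kept their calls, H2AC17 (limma adjusted p 0.0277) and H3C1 (0.0357) gained one, and H3C2 lost its call (0.0534). Over all 11963 genes 450 rose and 1855 fell in that fit.

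Changes that turned their sign, none of them past the test as deposited, were these. After quantile normalization they were H2AC8 0.13, H2BC5 0.22, H3C7 0.25, H4C13 0.0096, MACROH2A1 -0.12 and MACROH2A2 0.026. With median centring they were H1-5 0.32, H2AC8 0.40, H2AC25 0.12, H2BC5 0.35, H3C7 0.40, H4C13 0.19, H2AZ1 0.31, H2AZ2 0.30 and MACROH2A2 0.26. With spiked controls MACROH2A1 was -0.083. With 16 added, H2AC8 was 0.010 and H4C9 -0.059. With the mean of probe sets H2BC5 was 0.20, MACROH2A1 -0.0088 and H2AZ2 0.10. In the numbered samples alone H2AC6 was -0.056, H2AC8 0.41, H2AC15 0.27, H2BC13 -0.10, H4C9 -0.93, H4C5 -0.080 and MACROH2A1 -0.077. Leaving out 1 sample gave ranges of -0.13 to 0.36 for H1-2, -0.29 to 0.043 for H1-5, -0.055 to 0.26 for H2AC6, -0.63 to 0.53 for H2AC8, -0.90 to 0.095 for H2AC25, -1.06 to 0.059 for H2AC15, -0.017 to 0.42 for H2BC6, -0.31 to 0.083 for H2BC5, -0.85 to 1.09 for H3C8, -0.52 to 0.36 for H3C7, -1.06 to 0.051 for H3C11, -0.83 to 1.00 for H4C9, -0.17 to 0.71 for H4C5, -0.80 to 0.37 for H4C13, -0.085 to 0.25 for H2AJ, -0.17 to 0.11 for MACROH2A1 and -0.82 to 0.38 for MACROH2A2. The cause of these turns was not tested. Signals near the floor of the array limit the dim members.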
